A study of Mus musculus with 24 samples.

Results

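Satb1, Bach2, Foxo1, Ikzf1, Ikzf3, Ebf1, Pax5, Tcf3, Lef1 and Bcl6 are 10 transcription factors that guide the formation of lymphocytes, and they were chosen by name from the 55487 genes counted in mouse blood progenitors. All 10 were present in the count table and all 10 were among the 18931 genes that passed the filter on low counts. RNA-seq was done on Lineage-Sca1+KIT+ (LSK) cells, sorted mouse cells among which are blood stem cells and early progenitors. The cells came from control mice or from mice carrying MLL::ENL under Tet-On control (Tet-On-ME, here ME), and every group was cultured for 48 h after sorting, with MLL::ENL induced in culture. MLL::ENL is a leukaemia fusion of MLL, encoded by Kmt2a, with ENL, encoded by Mllt1. The 6 groups of 4 libraries were E16 ME and E16 control from fetal liver at embryonic day 16, P14 ME and P14 control from bone marrow at postnatal day 14, and 8wk ME and 8wk control from bone marrow at 8 weeks of age. Age and tissue cannot be told apart where E16 is compared with a later age. The promoter that drives the transgene, the alleles the control cells carried and whether the inducer was also given to controls are not given in the sources used here. Nothing there says that replicates came from separate animals, and the p-values then reflect only how far these libraries spread, which may be technical.

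B lymphocytes form from multipotent progenitors through a sequence of transcription factors. Ikzf1 (Ikaros), Satb1 and the E protein Tcf3 act early and open lymphoid genes in progenitors that still have other fates. Ebf1 and Pax5 then switch on and lock in the B-cell program, with Foxo1 acting beside Ebf1 on the recombination genes, while Bach2, Ikzf3 (Aiolos), Lef1 and Bcl6 act in later or more restricted steps. In bulk libraries such as these, a change in the number of cells that hold a transcript and a change in the transcript per cell cannot be told apart.

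The 4 members that were higher in ME at every age are Satb1, Bach2, Foxo1 and Ikzf1, and the sequence before a RefSeq transcription start of each is shown because these 4 share that call. The windows are chr17:51833291-51833540 (minus strand, up to the start of the Satb1 gene), chr4:32417185-32417434 (plus strand, inside the Bach2 gene), chr3:52268087-52268335 (plus strand, up to the start of the Foxo1 gene) and chr11:11685675-11685924 (plus strand, inside the Ikzf1 gene between annotated exons), all from RefSeq on GRCm38.p6. CG dinucleotides are in capitals.
Satb1: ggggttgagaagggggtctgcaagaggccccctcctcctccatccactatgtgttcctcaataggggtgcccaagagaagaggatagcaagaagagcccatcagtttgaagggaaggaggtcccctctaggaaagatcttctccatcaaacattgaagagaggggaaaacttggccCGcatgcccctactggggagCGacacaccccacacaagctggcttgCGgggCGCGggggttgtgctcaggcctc
Bach2: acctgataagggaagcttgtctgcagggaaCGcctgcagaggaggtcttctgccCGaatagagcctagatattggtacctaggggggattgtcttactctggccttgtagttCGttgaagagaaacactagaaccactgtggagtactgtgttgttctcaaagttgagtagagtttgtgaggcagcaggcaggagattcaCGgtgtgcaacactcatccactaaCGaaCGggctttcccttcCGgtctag
Foxo1: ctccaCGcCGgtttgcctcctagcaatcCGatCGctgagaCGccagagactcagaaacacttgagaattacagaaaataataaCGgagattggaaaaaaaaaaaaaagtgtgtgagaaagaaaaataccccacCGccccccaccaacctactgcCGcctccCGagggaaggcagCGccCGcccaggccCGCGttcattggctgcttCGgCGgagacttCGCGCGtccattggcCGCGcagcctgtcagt
Ikzf1: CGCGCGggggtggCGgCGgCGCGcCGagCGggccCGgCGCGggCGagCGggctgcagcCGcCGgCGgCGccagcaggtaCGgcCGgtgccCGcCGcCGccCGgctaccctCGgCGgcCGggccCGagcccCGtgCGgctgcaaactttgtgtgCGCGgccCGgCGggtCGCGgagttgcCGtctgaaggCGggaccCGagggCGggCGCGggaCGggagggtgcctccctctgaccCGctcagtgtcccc
Where a gene has several starts in the table (5 for Satb1, 2 for Ikzf1), the one nearest the 5′ end of the gene is shown. The windows differ widely in CG content. The Satb1 window holds 5 CG dinucleotides and the Bach2 window 7, near the median of 6 over the 32851 mouse starts in the RefSeq table. The Foxo1 window holds 20, more than 82.1% of starts, and the Ikzf1 window 44, more than 99.5% of starts. For Satb1 and Ikzf1 this depends on the start shown. The windows before the other Satb1 starts hold 3, 6, 12 and 41 CG dinucleotides, and 41 is more than 98.9% of starts hold. The window before the other Ikzf1 start holds 1, more than 7.87% of starts. The counts do not show which of the annotated starts was used in these cells.

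Short motifs of the factors' own families were searched on both strands in the 250 bases before each of the 19 starts of the 9 members found in the table. The E-box CANNTG, the element read by Tcf3, was present before 11 of the 19 member starts (57.9%), beside 66.2% of all starts, and at 1 or more starts of 7 of the 9 genes. The Ikaros motif TGGGAA was present before 2 of the 19 (10.5%), beside 21.6% of all starts, and the EBF motif (TCCC, any 2 bases, GGGA), which can overlap the Ikaros motif, before 1 of the 19 (5.26%), that of Foxo1, beside 0.779% of all starts. The forkhead motif TGTTTAC (3.17% of all starts) and the TCF-LEF motif CTTTGAT (3.21%) were found before no member start. A match is a match of letters and says nothing about binding.

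Library totals ranged from 33891949 to 69295621 counts. Markers of LSK cells were present throughout: all 10 on the list had counts in every group, and their sum lay between 2210 and 4030 CPM over the 24 libraries (read counts scaled to the library total, with TMM factors). Mllt1 checked the labels, with all 4 ME libraries above all 4 control libraries at each age (41.6 to 60 CPM against 13.9 to 26.7 at E16, 39.8 to 89.3 against 13.6 to 29.8 at P14 and 35.7 to 54.8 against 9.90 to 20.7 at 8wk). The liver genes Alb, Apoa1, Ttr and Serpina1a stood under 1 CPM in every library, and so did the T-cell gene Cd3e. Afp, the other liver gene listed, reached 1 CPM in every group, and the sum of the 5 was 5.26 to 27.0 CPM. Afp was called higher in P14 than in E16 controls and in 8wk than in P14 controls. The 12 T and NK markers summed to 106 to 382 CPM over the libraries. Of the 10 tested, Klrb1c was called higher in ME at all 3 ages, Cd4 at P14 and Cd5 at 8wk, and Cd5 was called lower at E16. In 3 libraries (E16 ME replicate 4, 8wk ME replicate 4 and 8wk control replicate 1) the profile stood apart from their groups in the principal components, a choice made after the data were seen. Summed neutrophil markers moved with that: they were 5420 to 6580 CPM in 8wk ME replicates 1 to 3 but 1430 in replicate 4, and 460 to 948 in 8wk control replicates 2 to 4 but 4560 in replicate 1. Their part in the results below was not tested, and counts of members without these 3 libraries are given beside each comparison. Of the genes called in ME against control, 61.1% were higher at E16, 57.5% at P14 and 49.8% at 8wk. Those shares were 74.6%, 70.5% and 56.6% with library size as the only scaling, which moved the median of all genes to 0.108, 0.113 and 0.031 log2. They were 47.4%, 44.7% and 39.1% with upper-quartile factors, where that median was -0.074, -0.055 and -0.114 log2.

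In control cells Tcf3 and Ikzf1 were by far the most abundant members. Per kilobase of exon, the scale on which genes can be compared, Tcf3 stood at 31.2 ± 16.4 CPM per kb and Ikzf1 at 22.9 ± 2.14 in E16 controls (SD, n = 4 libraries). Satb1 followed at 1.01 ± 0.188 CPM per kb and Bcl6 at 0.629 ± 0.314. Ebf1 stood at 0.435 ± 0.0746, Foxo1 at 0.353 ± 0.1, Bach2 at 0.271 ± 0.0761 and Lef1 at 0.130 ± 0.0543 CPM per kb. Ikzf3 (0.0775 ± 0.041 CPM per kb) and Pax5 (0.0210 ± 0.0142) were the lowest, and their values rest on 125 and 36 counts over the 4 libraries. In this order each gene overlapped its neighbour over the 4 libraries, except that Satb1 stood far below Ikzf1. At P14 and 8wk the same pair led, with Tcf3 at 26.5 ± 14.2 and 23.9 ± 8.71 CPM per kb and Ikzf1 at 21.8 ± 3.11 and 17.1 ± 2.43, and Ikzf3 and Pax5 were again the lowest.

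**Figure D1:**
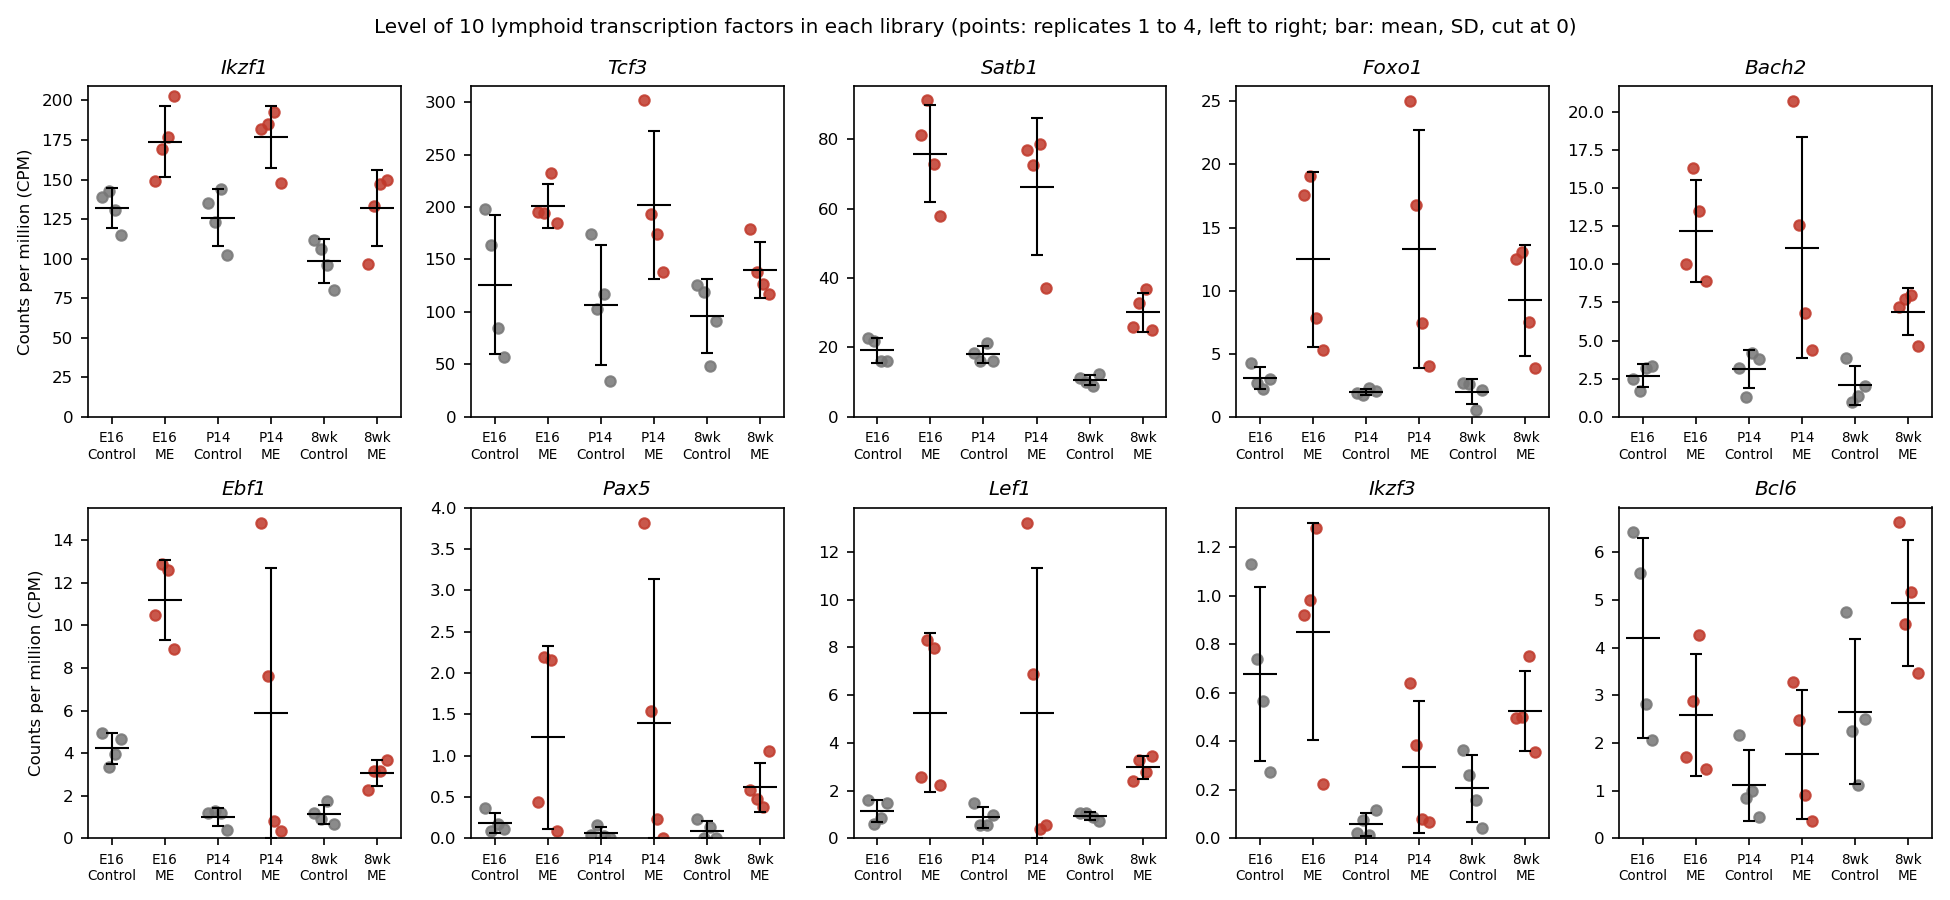
Level of each of the 10 transcription factors in the 24 libraries (CPM scaled by TMM factors, linear axes that differ between panels), by age, with ME and control libraries as points and the group mean with its SD. Satb1, Bach2 and Foxo1 are higher in ME at all 3 ages, while Ebf1, Pax5 and Lef1 at P14 split into 2 high and 2 low ME libraries.

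Across age in control cells, the members that were called were lower at the later age. Markers of other cell types fell as well: from E16 to P14 controls, all 12 tested markers of monocytes and macrophages and 9 of 12 neutrophil markers were called lower (median log2 difference -4.09 and -4.95), as were 6 of 9 megakaryocyte and 6 of 9 dendritic cell markers. The neutrophil sum went from 4030 to 10100 CPM at E16 to 399 to 1470 CPM at P14, and its part in the member values was not tested. From E16 liver to P14 marrow, edgeR's quasi-likelihood test called 3 of 10 members lower and 0 higher, where it called 15.1% of all genes (7.61% higher and 7.51% lower); 3 members had an unadjusted p under 0.05. These were Ikzf3, Ebf1 and Bcl6. Ikzf3 stood at 1.13, 0.738, 0.567 and 0.275 CPM in E16 controls and at 0.0215, 0.0748, 0.0151 and 0.118 CPM in P14 controls. All 4 P14 libraries lay below all 4 at E16, as for 12.6% of all genes, and the log2 difference was -3.50 ± 0.76 (SE; edgeR adjusted p = 0.00258), although the P14 value rests on 14 counts. Ebf1 went from 4.97, 3.35, 3.97 and 4.68 CPM to 1.18, 1.29, 1.17 and 0.405 CPM, again without overlap, a log2 difference of -2.07 ± 0.69 (edgeR adjusted p = 0.0482). That call was lost when any 1 of the 8 libraries was left out (adjusted p from 0.0654 to 0.14). Bcl6 went from 6.42, 5.57, 2.81 and 2.06 CPM to 2.17, 0.837, 0.994 and 0.439 CPM, with the highest P14 library above the lowest at E16, a log2 difference of -1.94 ± 0.59 (edgeR adjusted p = 0.0284). It was not called without E16 control replicate 1 or 2 or P14 control replicate 2, 3 or 4 (adjusted p from 0.0703 to 0.0931). Without the 3 libraries that stand apart, 2 members were lower.

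From P14 to 8wk marrow, edgeR called 1 of 10 members lower and 0 higher, where it called 12.6% of all genes (7.01% higher and 5.58% lower). The member was Satb1, at 18.5, 16.2, 21.2 and 16.0 CPM in P14 controls and 11.3, 10.1, 8.87 and 12.3 CPM in 8wk controls, without overlap, as for 8.22% of all genes that were lower in all 4 libraries. The log2 difference was -0.75 ± 0.20 (edgeR adjusted p = 0.0187), and it was not called without P14 control replicate 3 or 8wk control replicate 2 or 3 (adjusted p = 0.0776, 0.051 and 0.0652) or with limma-voom (0.051). Without the 3 libraries that stand apart Ikzf1 was lower too (-0.42 log2, adjusted p = 0.0446). From E16 to 8wk, 2 members were called lower and 0 higher, where 23.3% of all genes were called (12.5% higher and 10.8% lower). Satb1 differed by -0.85 ± 0.20 log2 (edgeR adjusted p = 0.00382) and Ikzf1 by -0.42 ± 0.14 (edgeR adjusted p = 0.031), each without overlap between the libraries, as for 13.1% of all genes. The Ikzf1 call was lost without E16 control replicate 1, 2 or 3 or 8wk control replicate 3 or 4 (adjusted p from 0.0577 to 0.112). Ebf1 also stood lower in all 4 libraries at 8wk (1.19, 0.917, 1.73 and 0.687 CPM) but was not called (-1.90 ± 0.69 log2, edgeR adjusted p = 0.0511). Without the 3 libraries that stand apart, 3 members were called lower, with Ikzf3 added at -2.16 log2 (adjusted p = 0.03). The Ikzf3 call between E16 and P14 and the Satb1 call between E16 and 8wk were kept in every alternative fit that tested the gene.

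Satb1, Bach2, Foxo1 and Ikzf1 were called higher in ME at every age, Lef1 at E16 and P14, Ikzf3, Ebf1 and Pax5 at P14, Tcf3 and Bcl6 at no age, and no member was called lower. At E16, edgeR called 5 of 10 members higher and 0 lower, where it called 21.8% of all genes (13.3% higher and 8.47% lower). The 5 were Satb1, Bach2, Foxo1, Ikzf1 and Lef1, and 7 members had an unadjusted p under 0.05. At P14 it called 8 higher and 0 lower, where it called 22.0% of all genes (12.7% higher and 9.35% lower), and the exceptions were Tcf3 and Bcl6. At 8wk it called 4 higher and 0 lower, namely Satb1, Bach2, Foxo1 and Ikzf1, where it called 28.5% of all genes (14.2% higher and 14.3% lower). Median log2 differences over the 10 members were 1.69 at E16, 2.09 at P14 and 1.46 at 8wk, beside 0.02, 0.03 and -0.02 over all genes. The members that were called at all 3 ages, Satb1, Bach2, Foxo1 and Ikzf1, were 4 of 10, beside 1266 of all genes (6.69%) that were higher in all 3 comparisons. All 4 ME libraries lay above all 4 controls for 6 members at E16, 4 at P14 and 6 at 8wk, beside 14.5%, 14.1% and 12.0% of all genes. Without the 3 libraries that stand apart the counts of members called higher were 4, 8 and 4. At P14 the count was not stable: it was 1 without ME replicates 1 and 2, as described below, and 4 with limma-voom or with only the P14 libraries in the fit, where Ikzf3 and Pax5 no longer passed the filter on low counts.

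**Figure D2:**
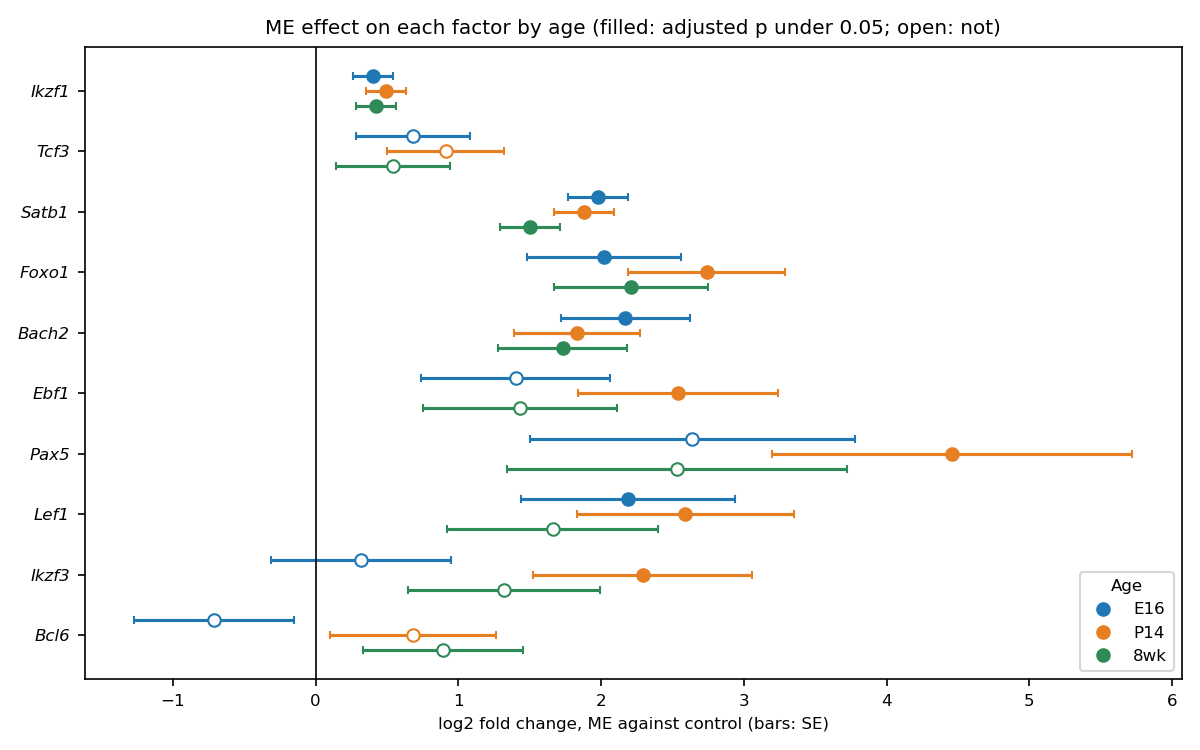
Log2 fold change of ME against control for each transcription factor at E16, P14 and 8wk, from the edgeR fit over 24 libraries, with bars for the SE and filled points where the adjusted p is under 0.05. Satb1, Bach2 and Foxo1 lie between 1.5 and 2.74 at every age with filled points, and Ikzf1 lies between 0.40 and 0.49.

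Satb1 is a chromatin organiser that binds AT-rich DNA and is needed for the lymphoid fate of stem cells. The gene lies on chromosome 17 (GRCm38, 51736187 to 51833290, minus strand). At E16 it stood at 81.1, 91.2, 72.9 and 58.0 CPM in ME and 22.8, 21.8, 16.1 and 16.2 CPM in controls. At P14 the ME libraries stood at 76.9, 72.6, 78.6 and 37.0 CPM and the controls at 18.5, 16.2, 21.2 and 16.0 CPM. At 8wk the values were 25.9, 32.9, 36.7 and 24.9 CPM in ME and 11.3, 10.1, 8.87 and 12.3 CPM in controls. Every ME library lay above every control library of its age, and P14 ME replicate 4 was the lowest of its group. The log2 fold change was 1.98 ± 0.21 at E16 (SE; edgeR adjusted p = 1.18e-06), 1.88 ± 0.21 at P14 (1.66e-06) and 1.5 ± 0.21 at 8wk (2.43e-05). Satb1 was called in every alternative fit run at the 3 ages, including each fit without 1 library. In order of mean level, E16 ME (75.8 ± 14.0 CPM, SD, n = 4) and P14 ME (66.3 ± 19.7) overlapped, 8wk ME followed at 30.1 ± 5.66, and the controls at E16 (19.2 ± 3.57) and P14 (18.0 ± 2.45) overlapped each other above those at 8wk (10.7 ± 1.49).

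Bach2 is a repressor that holds back myeloid and plasma-cell genes in developing lymphocytes. It lies on chromosome 4 (32238804 to 32586108, plus strand). The E16 ME libraries stood at 10.0, 16.3, 13.5 and 8.89 CPM and the E16 controls at 2.48, 1.72, 3.23 and 3.36 CPM. In P14 ME libraries Bach2 stood at 20.7, 12.6, 6.83 and 4.38 CPM, against 3.18, 1.33, 4.2 and 3.81 CPM in controls. In 8wk ME libraries it stood at 7.19, 7.70, 8.00 and 4.64 CPM, against 3.89, 0.996, 1.34 and 2.00 CPM. The ME libraries lay above the controls at each age, but at P14 replicate 4 stood barely above the highest control while replicate 1 stood several-fold higher. Bach2 rose by 2.17 ± 0.45 log2 at E16 (SE; edgeR adjusted p = 0.00157), 1.83 ± 0.44 at P14 (0.00506) and 1.73 ± 0.45 at 8wk (0.00649). It was called in every alternative at E16 and 8wk. At P14 it was not called without ME replicates 1 and 2 (0.84 log2, adjusted p = 0.24) or with the replicate block in a fit of the P14 libraries only (1.70 log2, adjusted p = 0.0832). An antisense gene, Bach2os, shares 537 exon bases with Bach2 but held 54 counts in all, against 7405 for Bach2.

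Foxo1 is a forkhead factor held out of the nucleus by growth-factor signalling, and in B-cell precursors it drives the recombination genes and the interleukin 7 receptor. It lies on chromosome 3 (52268336 to 52353221, plus strand). At E16 the ME libraries stood at 17.6, 19.1, 7.82 and 5.26 CPM and the controls at 4.27, 2.71, 2.24 and 3.03 CPM. P14 ME libraries stood at 25, 16.8, 7.41 and 4.05 CPM, against 1.85, 1.76, 2.29 and 2.08 CPM. 8wk ME libraries stood at 12.5, 13.1, 7.49 and 3.87 CPM, against 2.66, 2.62, 0.576 and 2.10 CPM. No ME library overlapped the controls, and in each ME group replicates 1 and 2 lay above replicates 3 and 4. Mllt1 was lowest in the same replicate 4 of each ME group (41.6, 39.8 and 35.7 CPM), and its part in the Foxo1 values was not tested. The log2 rise was 2.02 ± 0.54 at E16 (SE; edgeR adjusted p = 0.00982), 2.74 ± 0.55 at P14 (0.00114) and 2.21 ± 0.54 at 8wk (0.00467). Foxo1 was called in every alternative but 1: without P14 ME replicates 1 and 2 the P14 difference was 1.52 log2 (adjusted p = 0.067).

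Ikzf1, the zinc finger factor Ikaros that is needed for all lymphoid lineages, was already abundant and rose by a smaller factor. It lies on chromosome 11 (11685003 to 11772926, plus strand). At E16 it stood at 149, 169, 177 and 203 CPM in ME and 139, 143, 131 and 115 CPM in controls. P14 values were 182, 185, 193 and 148 CPM in ME and 135, 123, 144 and 102 CPM in controls. 8wk values were 96.9, 133, 147 and 150 CPM in ME and 112, 106, 95.7 and 80.1 CPM in controls. The groups did not overlap at E16 and P14, although the gap was narrow, and at 8wk ME replicate 1 lay among the controls. Ikzf1 rose by 0.40 ± 0.14 log2 at E16 (SE; edgeR adjusted p = 0.0416), 0.49 ± 0.14 at P14 (0.0134) and 0.42 ± 0.14 at 8wk (0.0281). These calls lie near the threshold. At E16 the call was kept without ME replicate 1 (0.0278) and lost without any 1 of the other 7 libraries (0.0544 to 0.148), and it was lost with upper-quartile factors (0.31 log2, 0.0738), without the 3 libraries that stand apart (0.119), with no filter (0.0748) and with the Y-linked covariate (0.0682). At P14 it was lost without control replicate 4 (0.0641), and at 8wk without ME replicate 2, 3 or 4 or control replicate 3 or 4 (0.0582 to 0.11) with upper-quartile factors (0.32 log2, 0.056), with no filter (0.0517) and with only the 8wk groups in the fit (0.0848).

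Ebf1, Pax5, Lef1 and Ikzf3 stood high in 2 of the 4 P14 ME libraries. Ebf1, the early B-cell factor that opens B-lineage chromatin, lies on chromosome 11 (44617317 to 45008091, plus strand). In P14 ME it stood at 14.8 and 7.63 CPM in replicates 1 and 2 but at 0.834 and 0.322 CPM in replicates 3 and 4, against 1.18, 1.29, 1.17 and 0.405 CPM in controls. Pax5, the factor that commits cells to the B lineage (chromosome 4, 44524757 to 44710487, minus strand), stood at 3.81, 1.54, 0.238 and 0 CPM in P14 ME and 0.0430, 0.164, 0.0301 and 0 CPM in controls. Lef1, a Wnt-pathway factor of B and T precursors (chromosome 3, 131110471 to 131224356, plus strand), stood at 13.2, 6.89, 0.397 and 0.553 CPM, against 1.46, 0.538, 0.542 and 0.962 CPM. In each of these genes replicates 1 and 2 lay above every control, and in Ebf1 and Lef1 replicate 3 or 4 lay at or below the lowest control. Ikzf3, the Ikaros relative Aiolos of maturing lymphocytes (chromosome 11, 98464902 to 98546031, minus strand), stood at 0.641, 0.385, 0.0794 and 0.0691 CPM, against 0.0215, 0.0748, 0.0151 and 0.118 CPM. Here too replicates 1 and 2 lay above every control and the others among them. The log2 differences were 2.54 ± 0.70 for Ebf1 (SE; edgeR adjusted p = 0.0125), 4.46 ± 1.26 for Pax5 (0.0147), 2.59 ± 0.76 for Lef1 (0.0178) and 2.29 ± 0.77 for Ikzf3 (0.0363). The Pax5 and Ikzf3 controls held 15 and 14 counts over 4 libraries.

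**Figure D3:**
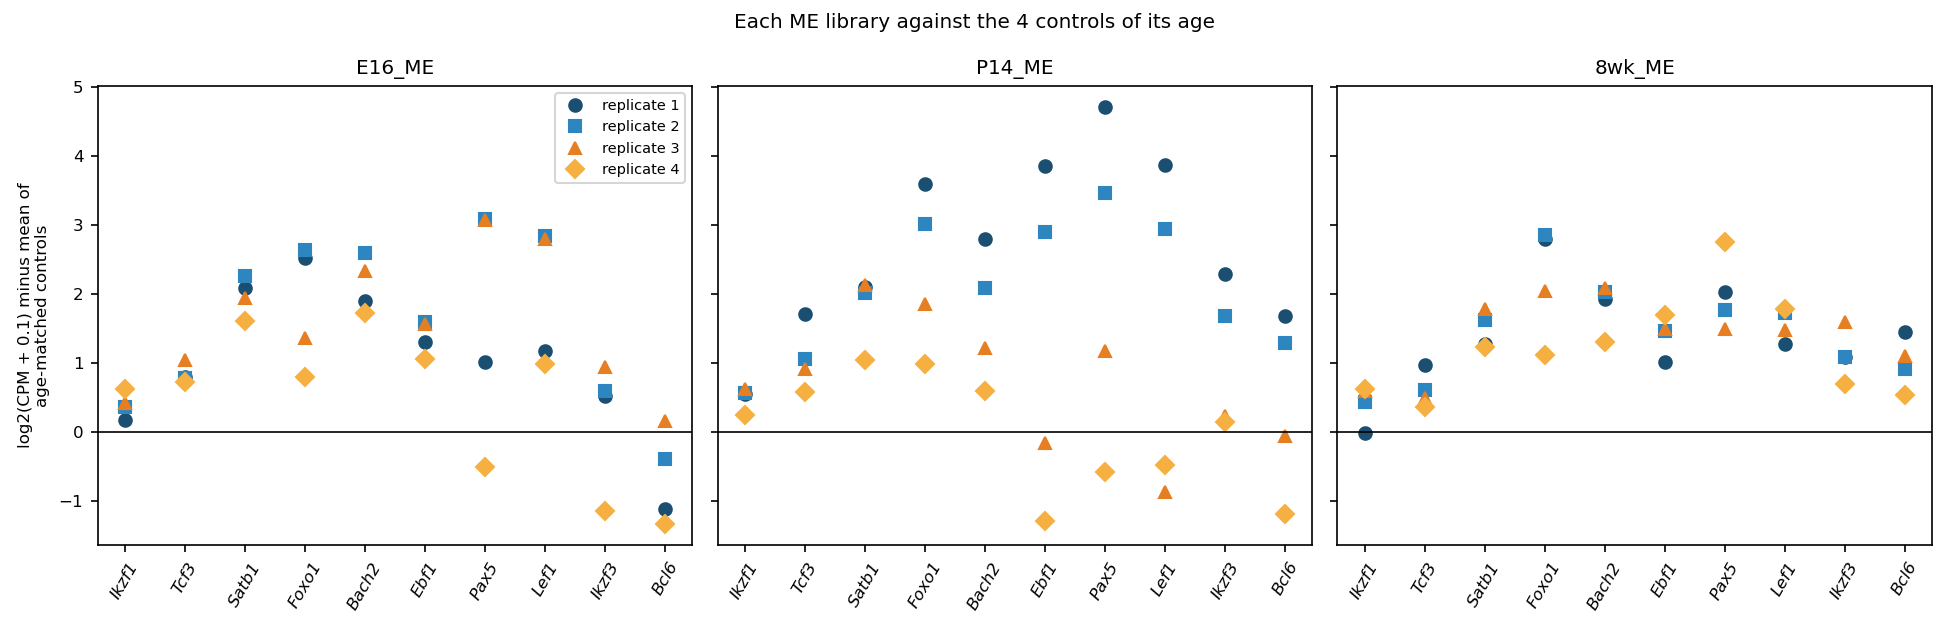
Log2 of each ME library above the mean of the controls of its age, for all 10 transcription factors, with 1 point per library and 0.1 CPM added before taking logs. At P14, Ebf1 lies at 3.85 and 2.90 in replicates 1 and 2 and at -0.15 and -1.29 in replicates 3 and 4, and Lef1 and Pax5 show the same split, while Satb1 lies between 1.05 and 2.13 in all 4.

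The P14 calls of these 4 genes rest on replicates 1 and 2. A fit without both was run because B-lineage genes stood high in them. Lower differences for these 4 genes follow from that choice and are no independent test, and only replicates 3 and 4 remain in P14 ME. Without both libraries the difference was -0.79 log2 for Ebf1 (edgeR adjusted p = 0.258), -0.87 for Lef1 (0.347), 0.98 for Pax5 (0.718) and 0.34 for Ikzf3 (0.865), and Satb1 alone of the 10 members was called. Leaving out replicate 1 alone ended all 4 calls (0.0976, 0.125, 0.0772 and 0.201 in the order Ebf1, Lef1, Pax5 and Ikzf3). The Lef1 call was also lost without P14 control replicate 2 or 3 (0.0544 and 0.0601) and the Pax5 call without P14 control replicate 3 or 4 (0.0506 for each). The Ikzf3 call was lost without ME replicate 2 (0.0813), without control replicate 1, 2 or 3 (0.0876, 0.0595 and 0.109) and with the replicate number as a block (1.92 log2, 0.0558). Limma-voom called none of the 4 at P14 (adjusted p from 0.201 to 0.284). Other values separated the same libraries. Y-linked genes stood at 0.03 and 0.15 (log2 of summed CPM plus 1) in P14 ME replicates 1 and 2 and at 7.93 and 7.84 in replicates 3 and 4, and in the controls at 0.03, 0.16 and 0.02 in replicates 1 to 3 and 7.79 in replicate 4. With the Y-linked level as a covariate, the same 8 members were called, with Ebf1 at 2.46 log2 (0.00739) and Lef1 at 2.45 log2 (0.0283).

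Markers of mature B cells moved with the split. Their summed level over 10 genes was 238 and 139 CPM in P14 ME replicates 1 and 2, 68.5 and 70.2 CPM in replicates 3 and 4, and 50.2 to 52.6 CPM in the controls. All 10 markers had counts in both P14 groups, but Ms4a1 (CD20), Cr2, Fcer2a and Ighd, which define mature B cells, stood under 1 CPM in all 8 libraries. At E16 the sum was 156 to 376 CPM in ME and 226 to 268 in controls, with Cr2 and Fcer2a under 1 CPM in all 8 libraries. At 8wk the sum was 120 to 352 CPM in ME and 55.3 to 136 in controls, and only Ighd stood under 1 CPM in all 8 libraries. Ms4a1, Cr2 and Fcer2a each reached 1 CPM in at least 1 library of 8wk ME. Of the 10 markers, 2 were called higher in ME at E16, 4 at P14 and 5 at 8wk, with 0 lower (median 1.14, 1.37 and 2.22 log2). Of all genes 13.3%, 12.7% and 14.2% were called higher. The T-cell gene Cd3d was at 0 counts in all P14 controls, and the T and NK marker sum was 267 to 320 CPM in P14 ME and 263 to 321 in controls. The split was not particular to B-cell markers. In P14 ME replicates 1 and 2 the neutrophil sum was 2110 and 1630 CPM, against 527 and 229 in replicates 3 and 4. The mast cell, basophil and eosinophil sum was 240 and 144 against 19.4 and 44.9 CPM. For monocytes and macrophages it was 134 and 152 against 75.4 and 97.1 CPM. The erythroid sum went the other way (987 and 1050 against 1230 and 1410 CPM). The part of other cell types in the levels of Ebf1, Pax5, Lef1 and Ikzf3 was not tested.

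At E16 and 8wk these 4 genes stood higher in ME by the mean, and Lef1 at E16 was the only one of them called. Ebf1 stood at 10.5, 12.9, 12.6 and 8.87 CPM in E16 ME and 4.97, 3.35, 3.97 and 4.68 CPM in controls, and at 2.26, 3.15, 3.18 and 3.70 CPM in 8wk ME and 1.19, 0.917, 1.73 and 0.687 CPM in controls. The libraries did not overlap at either age. The log2 differences were 1.40 ± 0.66 at E16 (SE; edgeR adjusted p = 0.14) and 1.43 ± 0.68 at 8wk (0.125), in a fit whose spread for Ebf1 includes the split P14 libraries. With only the groups compared in the fit, Ebf1 was called at E16 (1.42 ± 0.18 log2, adjusted p = 0.00131) and at 8wk (1.48 ± 0.31, 0.0124). Lef1 stood at 2.56, 8.31, 7.98 and 2.22 CPM in E16 ME and 1.60, 0.615, 0.872 and 1.49 CPM in controls, and at 2.39, 3.30, 2.79 and 3.45 CPM in 8wk ME and 1.07, 1.07, 0.890 and 0.730 CPM in controls. Again no libraries overlapped, and in E16 ME replicates 2 and 3 stood well above replicates 1 and 4. Lef1 rose by 2.19 ± 0.75 log2 at E16 (edgeR adjusted p = 0.041), a call kept without ME replicate 1 or 4 (0.0375 and 0.038) and lost without any 1 of the other 6 libraries (0.0575 to 0.11), with limma-voom (0.0891), with no filter (0.111) and with the Y-linked covariate (0.0521). At 8wk its difference was 1.66 ± 0.74 log2 (edgeR adjusted p = 0.102), and 1.70 ± 0.24 (0.00215) with only the 8wk libraries in the fit.

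Pax5 in E16 ME followed the pattern of Lef1, at 0.438, 2.19, 2.16 and 0.0896 CPM against 0.366, 0.0922, 0.174 and 0.110 CPM in controls. Replicates 2 and 3 stood apart above the rest, replicate 4 lay below every control, and the difference was not called (2.64 ± 1.14 log2, SE; edgeR adjusted p = 0.104). In 8wk ME it stood at 0.586, 0.474, 0.375 and 1.05 CPM against 0.237, 0, 0.140 and 0 CPM, without overlap, a log2 difference of 2.53 ± 1.19 (edgeR adjusted p = 0.117) that rests on 25 counts in the controls. Ikzf3 stood at 0.922, 0.983, 1.28 and 0.224 CPM in E16 ME against 1.13, 0.738, 0.567 and 0.275 CPM, with full overlap (0.32 ± 0.63 log2, adjusted p = 0.766). In 8wk ME it stood at 0.496, 0.498, 0.751 and 0.355 CPM against 0.363, 0.262, 0.157 and 0.0429 CPM, where only replicate 4 fell within the controls (1.32 ± 0.67 log2, adjusted p = 0.151). Without strand information, reads of Pax5 and of 5730488B01Rik, which shares 636 exon bases on the opposite strand and held 167 counts against 703 for Pax5, cannot be told apart. The same holds for Lef1 and Lef1os1, which share 1208 exon bases, although Lef1os1 held only 38 counts against 3188.

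Tcf3 and Bcl6 were called at no age. Tcf3 encodes the E proteins E12 and E47, which pair with other helix-loop-helix factors on E-boxes, and lies on chromosome 10 (80409514 to 80433647, minus strand). It stood at 195, 194, 232 and 185 CPM in E16 ME and 198, 164, 84.5 and 57.2 CPM in controls. P14 values were 302, 193, 174 and 138 CPM in ME and 174, 103, 117 and 34.5 CPM in controls. 8wk values were 179, 138, 127 and 117 CPM in ME and 126, 119, 48.6 and 91.8 CPM in controls. The controls varied several-fold, and the highest of them overlapped the ME libraries at every age. The log2 differences were 0.68 ± 0.40 at E16 (SE; edgeR adjusted p = 0.251), 0.91 ± 0.41 at P14 (0.116) and 0.54 ± 0.40 at 8wk (0.342). At P14 Tcf3 was called with the replicate block (0.97 ± 0.30 log2, 0.025) and without control replicate 1 (1.20 log2, 0.0474). Tcf3 has the most GC-rich transcript of the 10 (61.54% GC, against 45.16% to 55.38% for the others), and in some libraries its level went with a GC shift between libraries. The shift, the median log2 deviation of the 10% most GC-rich genes minus that of the 10% most GC-poor, was highest in P14 ME replicate 1 (0.749), which held the most Tcf3 of all libraries, and was -0.408 in P14 control replicate 4 and -0.871 in 8wk control replicate 3, the lowest Tcf3 libraries of their groups. In E16 controls the shifts were 0.171, 0.144, -0.031 and -0.11, and Tcf3 stood at 198, 164, 84.5 and 57.2 CPM. There, and in P14 ME and 8wk ME, the libraries had the same order by shift and by Tcf3. In E16 ME, P14 controls and 8wk controls the order differed. In 8wk controls, replicate 2 had a shift of -0.436 and 119 CPM of Tcf3, and replicate 4 had -0.243 and 91.8 CPM. In P14 controls, replicate 3 had 0.364 and 117 CPM, and replicate 1 had 0.161 and 174 CPM. With a correction of each library for GC content the Tcf3 differences were 0.34, 0.37 and 0.06 log2 at E16, P14 and 8wk (adjusted p = 0.43, 0.394 and 0.908). With that correction the counts of members called higher were again 5, 8 and 4.

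Bcl6, a repressor of germinal-centre B cells that also represses differentiation genes in other blood cells, lies on chromosome 16 (23965052 to 23988852, minus strand). At E16 it stood at 1.71, 2.89, 4.26 and 1.46 CPM in ME and 6.42, 5.57, 2.81 and 2.06 CPM in controls, the only member with a lower mean in ME. At P14 it stood at 3.28, 2.49, 0.914 and 0.368 CPM against 2.17, 0.837, 0.994 and 0.439 CPM, with replicates 1 and 2 high as for Ebf1. At 8wk it stood at 6.63, 4.50, 5.16 and 3.47 CPM against 4.76, 2.25, 1.12 and 2.51 CPM. The groups overlapped at all 3 ages, and the log2 differences were -0.71 ± 0.56, 0.68 ± 0.58 and 0.89 ± 0.56 (SE; edgeR adjusted p = 0.404, 0.445 and 0.257). Without P14 ME replicates 1 and 2 the P14 difference was -0.77 log2.

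Whether the ME effect differed between ages was tested directly, and edgeR called 0 of 10 members in any of the 3 differences. It called 0.0211% of all genes for P14 minus E16, 0.301% for 8wk minus P14 and 0.85% for 8wk minus E16. At an unadjusted p under 0.05 the count of members was also 0 in each, beside 888, 2202 and 2724 of all genes, and DESeq2 and limma-voom called 0 members as well. The differences over the 10 members ran from -0.35 to 1.97 log2 for P14 minus E16, from -1.92 to 0.21 for 8wk minus P14 and from -0.53 to 1.60 for 8wk minus E16. For Satb1 the difference was -0.38 ± 0.28 log2 for 8wk minus P14 (SE; edgeR adjusted p = 0.633) and -0.48 ± 0.29 for 8wk minus E16 (0.461). These differences share libraries with each other, and a p above the threshold does not show that the effects were the same.

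Within groups some members varied together across libraries. For each library the deviation of log2 CPM from its group mean was taken, which removes age and ME, and deviations were correlated over the 24 libraries as a description. Ebf1 correlated with Pax5 (Pearson r = 0.82) and with Lef1 (0.82), and Pax5 with Lef1 (0.74). Tcf3 correlated most with Bcl6 (0.81), and Satb1 with Bcl6 (0.67) and Foxo1 (0.66). Bcl6 also correlated with Pax5 (0.67), Ebf1 (0.64), Lef1 (0.63) and Foxo1 (0.63). The values of Ikzf1 ran from -0.11 with Foxo1, the lowest of all pairs, to 0.41 with Tcf3. Tcf3 also had low values with Bach2 (0.11), Lef1 (0.24) and Ikzf3 (0.26). The points share library depth and the GC shift between libraries. The split P14 ME libraries also weigh heavily: Ebf1 ran from 0.322 to 14.8 CPM there, against 8.87 to 12.9 in E16 ME and 2.26 to 3.70 in 8wk ME. Lef1 ran from 0.397 to 13.2 CPM in P14 ME, 2.22 to 8.31 in E16 ME and 2.39 to 3.45 in 8wk ME. The part of the P14 ME libraries in these correlations was not tested.

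**Figure D4:**
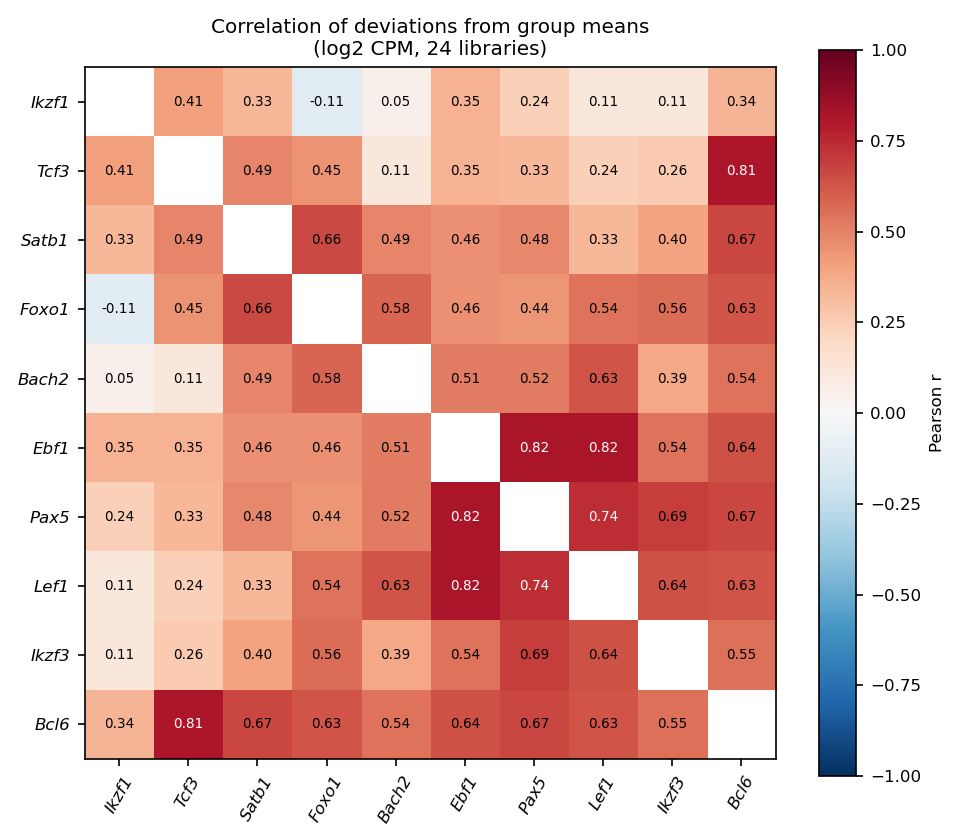
Pearson correlation between the 10 transcription factors of the deviations of log2 CPM from group means over 24 libraries, with colour and number giving r. Ebf1, Pax5 and Lef1 share values of 0.74 to 0.82, Tcf3 and Bcl6 stand at 0.81, and the values of Ikzf1 run from -0.11 to 0.41.

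The genes most like each member over the 24 libraries, among 9759 with a mean of at least 5 CPM, differed between members. For Ebf1 they were Il7r (r = 0.91), Pou2af1 (0.90) and Cd79a (0.89), and for Pax5 they included Cd79a (0.89) and Pou2af1 (0.87). For Lef1 they included Vpreb1 (0.90) and Cd79a (0.84). These are genes of B-cell precursors: the interleukin 7 receptor, a coactivator of octamer factors, parts of the B-cell receptor and its surrogate light chain. Ikzf3 was most like C1qc (0.91) and C1qb (0.89), complement genes of macrophages, and Aldh3b1 (0.87). The sum of monocyte and macrophage markers was 107 to 598 CPM in E16 ME and 435 to 1180 in controls, 75.4 to 152 and 64.1 to 100 at P14, with C1qa and C1qb at 0 counts in the controls, and 160 to 983 and 160 to 678 at 8wk. Its part in the Ikzf3 values was not tested. Satb1 was most like Dnmt3b, a DNA methyltransferase (0.96), Zc3hav1l (0.96) and H6pd (0.95), and Bach2 like H6pd, Sh2b3 and Mef2d (0.92 for each). Foxo1 was most like Pex6, Pptc7 and Trim28 (0.96 for each, and 0.89 to 0.92 on the deviations), Ikzf1 like Tmed8 (0.90), Ets1 (0.89) and Arhgap27 (0.89). Tcf3 was most like Map2k2 (0.99), Ssbp4 (0.97) and Zbtb45 (0.97), and Bcl6 among others like Atp8b4 (0.90) and Rgs14 (0.88).

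Of 20 tested target genes of the B-lineage factors, edgeR called 6 higher in ME at E16, 14 at P14 and 5 at 8wk, with 0 lower at any age, where it called 13.3%, 12.7% and 14.2% of all genes higher, and the list's median log2 difference was 1.62, 2.82 and 1.59. Rag1 and Rag2, the recombinase that cuts antigen receptor genes, were called at all 3 ages. Rag2 stood at 15.2 to 24.0 CPM in E16 ME and 4.74 to 6.84 in controls, at 10.5 to 23.0 and 2.77 to 7.42 at P14, and at 3.18 to 6.79 and 2.06 to 3.09 at 8wk. It rose by 1.61 ± 0.29, 1.84 ± 0.29 and 0.99 ± 0.29 log2 (SE; edgeR adjusted p = 3.28e-04, 7.67e-05 and 0.0126), but at 8wk not without the 3 libraries that stand apart (0.0854) or without 8wk ME replicate 4 alone (0.05). Bank1, a B-cell scaffold protein, rose by 2.51 ± 0.39, 2.84 ± 0.40 and 3.06 ± 0.43 log2 (edgeR adjusted p = 9.21e-05, 2.47e-05 and 2.68e-05). Without P14 ME replicates 1 and 2, 2 of the 20 were called at P14, Rag2 and Bank1, and the median was -0.31 log2. Those libraries were left out for their high B-lineage genes, so a lower median follows from the choice. With the replicate block 9 were called at 8wk in place of 5.

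Of 15 tested genes that Foxo factors are known to activate, edgeR called 10 higher at E16, 8 at P14 and 11 at 8wk, with 0 lower, beside 13.3%, 12.7% and 14.2% of all genes called higher. Rag1, Rag2 and Il7r are also on the B-lineage list. The median log2 difference was 0.72, 1.20 and 1.22. Klf2, a quiescence factor of lymphocytes that is also on the list of progenitor genes, rose by 3.82 ± 1.04, 4.02 ± 1.07 and 5.34 ± 1.07 log2 (SE; edgeR adjusted p = 0.0115, 0.0101 and 0.00104), but limma-voom called it at no age (0.204, 0.182 and 0.0709). Cited2, a transcriptional coregulator that keeps stem cells quiescent, stood at 18.2 to 113 CPM in E16 ME and 7.13 to 11.6 in controls, and rose by 2.79 ± 0.56, 3.11 ± 0.57 and 2.55 ± 0.55 log2 (edgeR adjusted p = 0.00135, 5.22e-04 and 0.00207). Cdkn1b, the cell cycle inhibitor p27, rose by 0.92 ± 0.22, 1.55 ± 0.22 and 0.65 ± 0.22 log2 (edgeR adjusted p = 0.00464, 3.44e-05 and 0.0292). Its 8wk call was lost without the 3 libraries that stand apart (0.18) and without 8wk control replicate 1 or 2 or ME replicate 2 or 4 (0.0517 to 0.127). Ccng2, cyclin G2, rose by 0.68 ± 0.14, 0.43 ± 0.13 and 0.48 ± 0.13 log2 (edgeR adjusted p = 9.45e-04, 0.0232 and 0.0106), and its P14 call was lost without ME replicate 2 or 3 or control replicate 3 or 4 (0.0507 to 0.0979) and with upper-quartile factors (0.0758). Without P14 ME replicates 1 and 2, 3 of the 15 were called at P14, namely Cdkn1b, Rag2 and Cited2. Without the 3 libraries that stand apart the counts were 9, 11 and 9 higher, with Sesn1 lower at 8wk.

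Of 11 tested relatives of the members, the same 4 were higher at each age and 0 were lower: Ikzf2 (Helios), Bcl6b, Tcf7l1 and Tcf7l2, the last 2 being TCF factors related to Lef1. The shares of all genes called higher were 13.3%, 12.7% and 14.2%, and the list's median log2 difference was 0.37, 0.49 and 0.17. Ikzf2 stood at 28.2 to 44.8 CPM in E16 ME and 12.0 to 14.3 in controls, at 40.3 to 48.3 and 10.1 to 11.9 at P14, and at 17.6 to 33.6 and 12.0 to 13.7 at 8wk. No libraries overlapped, and the log2 rise was 1.34 ± 0.17, 2.00 ± 0.17 and 0.81 ± 0.17 (SE; edgeR adjusted p = 9.70e-06, 9.25e-08 and 0.00112). The ME effect on Ikzf2 was smaller at 8wk than at P14 (-1.19 ± 0.24 log2, edgeR adjusted p = 0.0376), although with only those 4 groups in the fit 0 of all genes passed for this difference. Bcl6b rose by 1.77 ± 0.33, 1.59 ± 0.32 and 3.45 ± 0.35 log2 (edgeR adjusted p = 4.77e-04, 0.00113 and 1.12e-06). Tcf7l1 rose by 2.16 ± 0.39, 3.57 ± 0.42 and 1.71 ± 0.40 log2 (edgeR adjusted p = 4.22e-04, 3.30e-06 and 0.00284). Tcf7l2 rose by 0.75 ± 0.16, 0.49 ± 0.16 and 0.71 ± 0.16 log2 (edgeR adjusted p = 0.00226, 0.0337 and 0.00274), and its P14 call was lost without any 1 of 6 of the 8 libraries, the exceptions being ME replicate 2 and control replicate 4 (0.0503 to 0.117), and with upper-quartile factors (0.0699). All 4 were called at P14 without ME replicates 1 and 2 as well.

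A list of E proteins, Id inhibitors and related helix-loop-helix factors, among them Tal1, held 7 tested genes. Of these, 2 were higher and 0 lower at each age, beside 13.3%, 12.7% and 14.2% of all genes called higher. The list's median log2 difference was 0.16, 0.09 and 0.19. At E16 the genes called were Tal1 (0.79 ± 0.23 log2, SE; edgeR adjusted p = 0.017), a helix-loop-helix factor of stem and red cells, and the E protein Tcf12 (0.56 ± 0.15, 0.0103). At P14 they were Tal1 (0.87 ± 0.23, 0.00865) and Id3 (4.2 ± 0.76, 4.19e-04), and at 8wk Id3 (2.08 ± 0.72, 0.0354) and Id2 (1.20 ± 0.20, 1.59e-04), where Id proteins bind E proteins and keep them off DNA. Id2 stood at 33.2 to 79.3 CPM in 8wk ME and 25.3 to 28.1 in controls, without overlap. Id3 at P14 ranged from 0.496 to 11.8 CPM in ME against 0.101 to 0.419 in controls, and without ME replicates 1 and 2 neither Id3 (0.0624) nor Tal1 (0.0796) was called. The E16 calls were lost without control replicate 4 (0.0567 for Tal1 and 0.0552 for Tcf12), that of Tal1 also without ME replicate 4 (0.0546), and the 8wk call of Id3 without ME replicate 1 or 3 or control replicate 1, 3 or 4 (0.0511 to 0.116).

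Factors of other lineages and partners moved in both directions. Of 17 tested, 5 were higher and 2 lower at E16, 7 and 1 at P14, and 8 and 2 at 8wk, with median log2 differences of 0.37, 0.66 and 0.53. Of all genes 13.3%, 12.7% and 14.2% were called higher and 8.47%, 9.35% and 14.3% lower. Gfi1, a repressor of granulocyte and lymphoid progenitors, stood at 5.96 to 20.9 CPM in E16 ME and 0.349 to 1.41 in controls, and rose by 4.02 ± 0.67, 4.69 ± 0.69 and 4.2 ± 0.68 log2 (SE; edgeR adjusted p = 2.43e-04, 5.71e-05 and 1.59e-04). Nfil3, a factor needed for innate lymphoid cells, rose by 1.00 ± 0.27, 1.61 ± 0.27 and 2.11 ± 0.28 log2 (edgeR adjusted p = 0.0102, 1.89e-04 and 1.63e-05). Cebpa, the factor that directs granulocyte and monocyte fate, rose by 1.65 ± 0.56, 2.44 ± 0.58 and 2.88 ± 0.59 log2 (edgeR adjusted p = 0.0408, 0.00434 and 0.00114). Its E16 call was lost without ME replicate 1, 2 or 3 or control replicate 2, 3 or 4 (0.0759 to 0.102), and its P14 call without ME replicates 1 and 2 (0.159). Bcl11a, which is needed for B-cell development, rose at P14 (0.66 ± 0.15 log2, edgeR adjusted p = 0.00317) and 8wk (0.81 ± 0.15, 5.20e-04), and its E16 difference was 0.24 ± 0.15 (0.267). The gene called lower at all 3 ages was Gfi1b, a repressor of red-cell and platelet precursors, named after its values were seen (-0.73 ± 0.16, -0.51 ± 0.16 and -0.53 ± 0.16 log2, edgeR adjusted p = 0.00239, 0.0255 and 0.0154). Its P14 call was lost with library size as the only scaling (0.0699), with only the P14 groups in the fit (0.0709), without ME replicate 2 or 4 or control replicate 3 (0.0732, 0.0734 and 0.172) and without ME replicates 1 and 2 (0.111). Its 8wk call was lost with only the 8wk groups (0.0533) and without ME replicate 1 or control replicate 4 (0.0525 and 0.0602).

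Of 15 tested genes of lymphoid-primed progenitors, 2 were higher and 1 lower at E16, 3 and 1 at P14 and 5 and 0 at 8wk, with median log2 differences of -0.04, 0.18 and 0.38, the first of which was 0.05 with library size as the only scaling. Of all genes 13.3%, 12.7% and 14.2% were called higher and 8.47%, 9.35% and 14.3% lower. Without P14 ME replicates 1 and 2, 0 were higher and 1 was lower at P14. Dntt, the polymerase that adds bases at antigen receptor joints, rose at E16 (1.68 ± 0.44 log2, SE; edgeR adjusted p = 0.00908) from 0.698 to 1.26 CPM in controls to 2.19 to 3.70 in ME. At P14 it stood at 58.0 to 119 CPM in ME and 34.7 to 94.6 in controls, and at 8wk at 67.1 to 226 and 60.6 to 166, and was not called (0.64 ± 0.36 and 0.38 ± 0.36 log2). Cd34, a progenitor surface protein, fell at P14 (-0.57 ± 0.11 log2, edgeR adjusted p = 4.35e-04). Jchain, which joins secreted antibodies, was called lower at E16 (-2.51 ± 0.82 log2, 0.0341) and higher at 8wk (2.83 ± 0.78, 0.0106). The 8wk value rests on ME replicate 4 (154 CPM, against 7.13 to 9.09 in the other ME libraries and 3.43 to 12.6 in controls), without which its adjusted p was 0.531, and the E16 call was lost without ME replicate 2, 3 or 4 or control replicate 3 or 4 (0.0626 to 0.094).

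Of 16 tested corepressors and chromatin partners of these factors, the same 4 were higher at each age: Ctbp1, Tle1, Tle4 and Ncor1. At P14 2 were lower (Smarca4 and Sin3a), and at E16 and 8wk 0 were lower, beside 13.3%, 12.7% and 14.2% of all genes called higher and 8.47%, 9.35% and 14.3% lower. The median log2 difference was -0.06, 0.37 and 0.44, the first of which was 0.04 with library size as the only scaling. The split shifts with scaling: with library size only 5 were higher and 0 lower at P14, and with upper-quartile factors 2 were lower at E16 (with 3 higher), 4 at P14 and 2 at 8wk, and with the GC correction 2 were lower at 8wk and Tle4 was not called at E16 (0.0511). Ctbp1, a corepressor of zinc finger factors, stood at 73.0 to 265 CPM in E16 ME and 18.2 to 37.6 in controls, and rose by 2.85 ± 0.51, 3.58 ± 0.52 and 2.95 ± 0.51 log2 (SE; edgeR adjusted p = 4.64e-04, 5.80e-05 and 3.02e-04). Tle1, a Groucho-type corepressor, rose by 2.01 ± 0.36, 2.34 ± 0.36 and 2.29 ± 0.36 log2 (edgeR adjusted p = 3.72e-04, 7.26e-05 and 1.00e-04). Tle4 of the same family rose by 0.83 ± 0.30, 1.28 ± 0.30 and 1.32 ± 0.30 log2 (edgeR adjusted p = 0.0497, 0.00377 and 0.00261). Ncor1, the nuclear receptor corepressor, rose by 0.79 ± 0.27, 0.96 ± 0.27 and 0.82 ± 0.27 log2 (edgeR adjusted p = 0.0371, 0.0121 and 0.0247). The E16 calls of Tle4 and Ncor1 were lost without single libraries (ME replicate 1 or 2 or any control for Tle4, 0.0738 to 0.241, and ME replicate 1 or 2 or control replicate 2, 3 or 4 for Ncor1, 0.0592 to 0.124). The 8wk call of Ncor1 was lost without ME replicate 2 or 3 or control replicate 3 (0.0573 to 0.0846), and without P14 ME replicates 1 and 2 only Ctbp1 and Tle1 were called at P14.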

How the data were processed

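RNA-seq of cultured LSK cells gave 24 libraries, 4 in each of 6 groups taken from the sample titles. The labels' protocols name a Qiagen RNeasy Plus kit for RNA and a Clontech SMART-type kit for the libraries. The deposited values are raw read counts per Ensembl gene. The authors' tools were STAR 2.7.9a and featureCounts 2.0.3 of Subread, with the GRCm38 build, per the submitters' processing notes. Which annotation release, strand setting or filter was used is not given in the sources used here. In the median library 63.6% of the counts from 1 to 20 were even, and the cause was not tested. The file has 55774 lines for 55487 gene IDs, and the 168 IDs on several lines carried identical counts and were used once.

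From the counts, edgeR 4.0.16 (R 4.3.3) with TMM factors, filterByExpr at a minimum count of 10 and the robust quasi-likelihood test was fitted to all 24 libraries with 1 mean per group. P-values were adjusted by Benjamini and Hochberg over 18931 genes, with a threshold of 0.05, and a gene is called where it passes. The SE is the log2 fold change divided by the square root of the F statistic. CPM values are scaled by TMM factors, and CPM per kb divides by exon length from GENCODE M21 on GRCm38. The script was tested on simulated data. The members and all gene lists were chosen with earlier results of these data known, and the lists are no independent evidence of a direction. Named are all members, the 3 genes most like each member among those with a mean of at least 5 CPM and, from each list, up to 4 genes called in an ME comparison with the lowest adjusted p. Some genes that this rule names are not reported here.

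Alternatives were library-size scaling, upper-quartile factors, no filter, a minimum of 1 CPM in 4 libraries, DESeq2 1.42.0, limma-voom (limma 3.58.1), only the groups compared, the replicate number as a block, a covariate from 4 Y-linked genes, and leaving out each library. Leaving out the 3 libraries that stand apart, leaving out P14 ME replicates 1 and 2, the block in a fit of the P14 libraries alone and a GC correction were added after seeing the data. P14 ME replicates 1 and 2 were picked because B-lineage genes stood high in them, and without them only replicates 3 and 4 remain in that group. Deviations from the group means of ME and control libraries with the same number correlated at 0.19, 0.14, 0.14 and 0.23 at P14, all above 0.1, so the numbers were taken to pair the P14 libraries, from the data and not from a label. The pairing is weakly backed. P14 ME replicates 1 and 4 correlated best with the control of their own number, but replicates 2 and 3 did not. The Y-linked level was 7.93 in P14 ME replicate 3 and 0.02 in P14 control replicate 3. At E16 (-0.04 to 0) and 8wk (-0.09 to 0.12) not all correlations passed 0.1, and the numbers were not taken to pair libraries.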

Additional observations from a re-analysis of the deposited data

Results flagged for a closer look

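Among 60 sets of 4 libraries (10 members in 6 groups), 3 held a library far from the other 3, measured by its gap to the nearest library relative to the range of the group, and chance gives about 1 in 20. Satb1 in P14 ME stood at 37.0 CPM in replicate 4 and at 72.6 to 78.6 CPM in the others. Foxo1 in 8wk control stood at 0.576 CPM in replicate 3 and at 2.10 to 2.66 CPM in the others. Ebf1 in P14 control stood at 0.405 CPM in replicate 4 and at 1.17 to 1.29 CPM in the others.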

How the results depend on the processing

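Of 199 counts of members under the alternatives, 165 stayed within 1.5 times the count reported and 34 did not. The 199 include the 3 differences of ME effects between ages, where 0 members and 0.0211% to 0.85% of all genes were called. There the count stayed at 0 whenever a single library was left out, and a count that stays at 0 is scored as kept. The share that stayed therefore overstates how stable the other comparisons were. The 5 members higher at E16 became 3 with no filter on low counts, 3 with the Y-linked covariate and 3 to 5 when single libraries were left out. The 8 higher at P14 became 4 with limma-voom, 4 with only the P14 libraries, 4 with only those libraries and the replicate block, 1 without ME replicates 1 and 2, and 4 to 8 when single libraries were left out. The 4 higher at 8wk became 3 to 4 when single libraries were left out. The 3 lower in P14 against E16 controls became 1 with no filter and 1 to 2 without single libraries. The 1 changed in 8wk against P14 controls became 2 with the replicate block (1 higher, Bcl6, and 1 lower), 0 with limma-voom, 2 without the 3 libraries that stand apart, and 0 to 1 without single libraries. The 2 lower in 8wk against E16 controls became 1 with no filter, 4 with the replicate block, 4 with DESeq2 and 1 to 3 without single libraries. With the block all 24 libraries still gave 8 members at P14, with Tcf3 in place of Ikzf3. Without P14 ME replicates 1 and 2 the P14 difference turned to -0.79 log2 for Ebf1, -0.87 for Lef1 and -0.77 for Bcl6. Except where the alternative itself tests fewer genes or samples, the cause was not tested. Of 843 values of single members, 733 kept their direction and side of the threshold, 86 lost a call, 21 gained one and 3 turned.

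Over all genes, counts called moved by more than 1.5 times in these cases. At P14, 4168 became 2369 without ME replicates 1 and 2. At 8wk, 5392 became 2907 with only the 8wk groups and 3433 without control replicate 3. In 8wk against P14 controls, 2384 became 1483 with no filter, 1092 with only those groups, 3605 without the 3 libraries that stand apart and 929 to 3115 without single libraries. For 8wk minus E16, 161 became 107 with no filter, 250 with the CPM minimum, 357 with the block, 59 with the Y-linked covariate, 603 with DESeq2, 55 with only those groups, 1362 without the 3 libraries that stand apart and 48 to 896 without single libraries. For 8wk minus P14, 57 became 298 with DESeq2, 0 with only those groups, 1009 without the 3 libraries, 87 without P14 ME replicates 1 and 2 and 4 to 369 without single libraries. For P14 minus E16, 4 became 1 with the Y-linked covariate, 29 with DESeq2, 10 without the 3 libraries, 7 without P14 ME replicates 1 and 2 and 1 to 5 without single libraries. Of genes called at 8wk, 67.9% were higher with only the 8wk groups in the fit, and of those called in 8wk against P14 controls 43.2% with library size only against 55.7%. Depth limits Pax5 and Ikzf3, whose P14 controls held 15 and 14 counts.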
